A study of Mus musculus with 8 samples.

Results

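The enzymes that build nucleotides, make serine and load folate with carbon units were followed in lungs of E14.5 mouse embryos, in which ligands of the Fgf receptor Fgfr2b had been captured for 9 h or left free. The set was a fixed list of 32 genes, and all 32 were found by symbol among the 24583 genes named on the array, each read from its brightest spot. It was divided by pathway into a purine arm of 14 genes, a pyrimidine and deoxynucleotide arm of 10 genes and a serine and one-carbon arm of 8 genes. The data comprised 8 one-colour arrays of the left lung lobe, 4 titled experimental and 4 titled control, each numbered 1 to 4. Experimental embryos carried the tetracycline transactivator rtTA on both Rosa26 alleles and 1 copy of the doxycycline-dependent transgene Tg(tet(o)sFgfr2b), which encodes a secreted, soluble Fgfr2b. Control embryos were littermates with the same Rosa26rtTA/rtTA genotype and no transgene. Dams of both groups received doxycycline (0.0015 mg per g of body weight, intraperitoneally), so that the drug and the transactivator were shared by all 8 lungs. Because Rosa26 is active in nearly all cells and the soluble receptor is secreted, the model does not restrict capture of the ligands to 1 cell type. A lobe contains epithelium, mesenchyme, vessels and blood, and in such bulk RNA fewer cells of a type and less RNA per cell cannot be told apart. Values are normalized log2 signals, on which a difference of 1 is a doubling, and signals of different genes were not set against each other because spots differ in brightness for reasons of their probes.

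Purine synthesis assembles the purine ring on phosphoribosyl pyrophosphate (PRPP), step by step, up to IMP, from which AMP and GMP are made. Pyrimidine synthesis makes the ring first, joins it to PRPP to give UMP and proceeds to CTP, while ribonucleotide reductase and thymidylate synthase provide the precursors of DNA. Both draw on folate that carries carbon units, most of which come from serine, so that serine synthesis, the folate enzymes of cytosol and mitochondria and the nucleotide pathways are commonly regarded as 1 supply line for growing cells. Many of these genes are expressed most strongly in proliferating tissue, and several are known targets of Myc or, for the serine pathway, of Atf4.

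The labels require a remark before any result. Etv5, an Ets transcription factor of the epithelial tips whose transcription responds to Fgf signalling, had 10.42 and 10.43 in experimental 1 and 2 and 10.09 and 10.57 in control 1 and 2, against 13.11 and 13.26 in experimental 3 and 4 and 13.18 and 13.26 in control 3 and 4. Its level therefore followed the number in the title and not the labelled group, with a difference of 0.03 between the labelled groups and −2.83 between numbers 1 and 2 and numbers 3 and 4. Sox9 and Etv4, also of the epithelial tips, differed by −0.33 and −0.30 between the labelled groups and by −1.98 and −1.87 between the numbers. These values go against the labels of a design that withdraws Fgf signals from the experimental lungs, so the labels may not give the treatment each lung received, and no value below from the labelled groups or from the numbers can be read as the effect of the soluble receptor. Number and sex were also linked, since Xist, the transcript of the inactive X chromosome, had 2.98 and 8.21 in experimental 1 and 2 and 3.48 and 7.87 in control 1 and 2, against 3.63 and 7.45 in experimental 3 and 4 and 3.39 and 7.55 in control 3 and 4. High Xist thus marked numbers 2 and 4 of both groups, so that numbers 1 and 2 held as many arrays with high Xist as numbers 3 and 4. Markers of the labelled tissue were read by their signal, since a spot on the array does not show that a gene is expressed. The median signal was 11.01 over the 10 pan-epithelial, 12.21 over the 10 mesenchymal and 11.15 over the 8 endothelial markers. Nkx2-1, a transcription factor of lung epithelium, had a mean log2 signal of 10.88. The dimmest of these markers was the mesenchymal Twist1, with a mean of 4.02. The arrays shared 1 distribution of signals by construction, with a median of 4.43 on each, and any 2 arrays correlated across genes at 0.986 to 0.992.

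Members covered a wide range of signal. The brightest were Adsl and Nme2, each at a mean of 15.18, near the upper limit of the scale at 16, where differences are compressed. The dimmest was Shmt1 at 6.48. By their means all 32 members lay above 5.79, the median of all genes, which is not a limit of detection. Shmt1 lay below it in experimental 1 (5.50) and control 1 (5.22).

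The first comparison asked whether these genes differed between lungs labelled as carrying the soluble receptor and those labelled as lacking it. No member passed the test. By limma 0 of 32 members passed at an adjusted p under 0.05, as did 0 of all 24583 genes (0%), and at an unadjusted p under 0.05 there were 0 members and 876 genes (3.56%). Differences of the members, experimental minus control, ran from −0.24 to 0.07 with standard errors of 0.09 to 0.51, and the 95% confidence interval spanned 0 in all 32. A total of 10 members were higher and 22 lower in sign, with a median of −0.04 against 0.00 over all genes. This median ran from −0.13 without experimental 4 to 0.02 without experimental 1, so its sign rested on single arrays. In 0 members the labelled groups were without overlap, which happened in 0.944% of all genes with the experimental arrays lower and in 0.952% with them higher. The purine arm averaged 10.55 ± 0.18 in the arrays labelled experimental and 10.59 ± 0.13 in those labelled control (SD, n = 4 each). For the pyrimidine and deoxynucleotide arm the means were 10.99 ± 0.23 in experimental and 11.03 ± 0.13 in control, and for the serine and one-carbon arm 9.69 ± 0.39 in experimental and 9.77 ± 0.31 in control. These differences of −0.04, −0.04 and −0.08 were smaller than the SD of either group. Each group held arrays of all 4 title numbers, so these SDs include the difference by number described below. The arm means were not compared with the number held fixed. Among the cell type markers, 4 of the 6 cardiac genes were lower without overlap in the arrays labelled experimental (mean of 9.66 ± 0.19 in experimental and 9.95 ± 0.11 in control, SD, n = 4 each), and their part in the members' values was not tested.

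Among single members, the smallest unadjusted p belonged to Psph, the phosphatase that releases serine in the last step of its synthesis. Psph had 9.15, 9.31, 9.16 and 9.25 in experimental 1 to 4, against 9.40, 9.33, 9.29 and 9.29 in control 1 to 4, a difference of −0.11 (95% confidence interval −0.32 to 0.10) with an unadjusted limma p of 0.267. Ppat, the amidotransferase that commits PRPP to purine synthesis, had the largest difference of all members by the brightest spots. Its brightest spot had 7.76, 7.58, 8.50 and 8.65 in experimental 1 to 4, against 8.26, 7.84, 8.56 and 8.80 in control 1 to 4. The difference was −0.24 (95% confidence interval −0.92 to 0.43), with a range of −0.42 without experimental 4 to −0.063 without experimental 2. The dimmer spot of Ppat, with a mean of 7.51, gave a difference of 0.045. The groups overlapped for both genes, since the range of each group lay largely within that of the other for Ppat and control 3 and 4 lay below experimental 2 for Psph. In pairs of arrays with the same title number, the one labelled experimental had the lower signal for Ppat, Psph and Phgdh each time. For Dut it had the higher signal each time, but by only 0.0016 in number 1 and 0.0014 in number 3. The dimmer spot of Dut gave a difference of −0.08 between the labelled groups. The other 28 members had both signs over the 4 numbers. How many of all genes kept 1 sign was not counted, so no consistent difference can be read from these members. For Ppat the interval was −0.53 to 0.04 and for Phgdh −0.45 to 0.05 with the number as a block. All 32 blocked intervals spanned 0. In the pyrimidine arm the smallest p belonged to Tyms (thymidylate synthase) and Umps (UMP synthase), with differences of −0.15 (95% confidence interval −0.48 to 0.18) and −0.13 (95% confidence interval −0.48 to 0.21). Adjusted p-values were 0.9998 for every member.

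**Figure D1:**
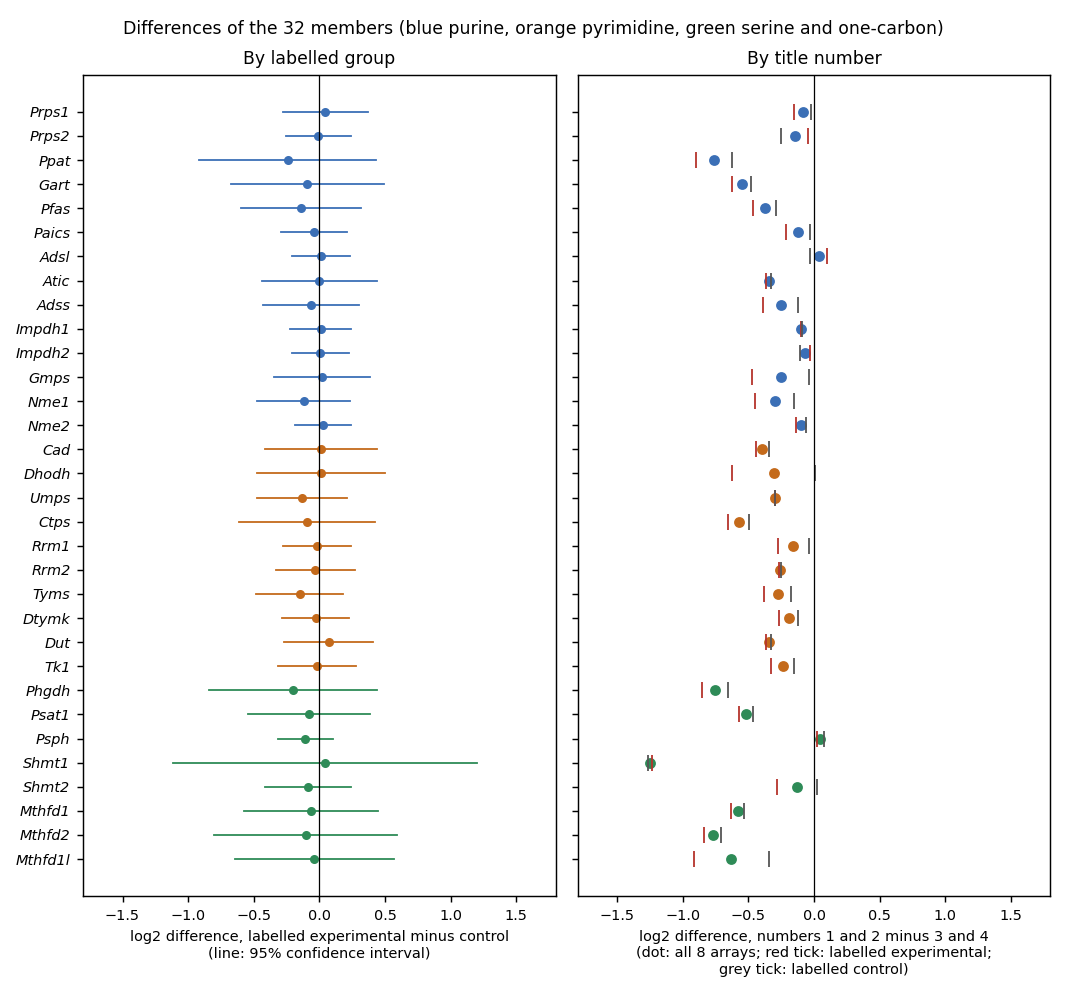
Log2 differences of the 32 members (rows). Left, labelled experimental minus control with 95% confidence intervals (limma, n = 4 each), all of which span 0. Right, numbers 1 and 2 minus numbers 3 and 4, over all 8 arrays (dots) and within the labelled experimental (red ticks) and control arrays (grey ticks), where 30 of 32 dots lie below 0.

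The second comparison followed the number in the title. Arrays numbered 1 and 2, of both labelled groups, were set against those numbered 3 and 4, a division taken with the values of Etv5 known and therefore described here without a test. In 30 of 32 members the mean was lower in numbers 1 and 2, where 50.2% of all genes and 48.9% of the genes at or above the median signal were lower. The median difference, numbers 1 and 2 minus numbers 3 and 4, was −0.29 over the members and 0.00 over all genes. In 14 members every array numbered 1 or 2 lay below every array numbered 3 or 4, and in 0 members every one lay above. Over all genes the first pattern was found in 5.39% and the second in 5.17%, and among the genes at or above the median signal, to which all members belong, in 8.88% and 8.44%. A total of 9 members were lower by at least 0.5, as were 4.24% of all genes. The number difference was larger in size than the difference between the labelled groups in 31 of 32 members, Psph being the exception. A total of 28 members were lower in numbers 1 and 2 within the labelled experimental and within the labelled control arrays taken alone. Neither count was made over all genes, so neither can be called particular to the members. The median number difference over the members was −0.37 within the arrays labelled experimental and −0.21 within those labelled control.

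**Figure D2:**
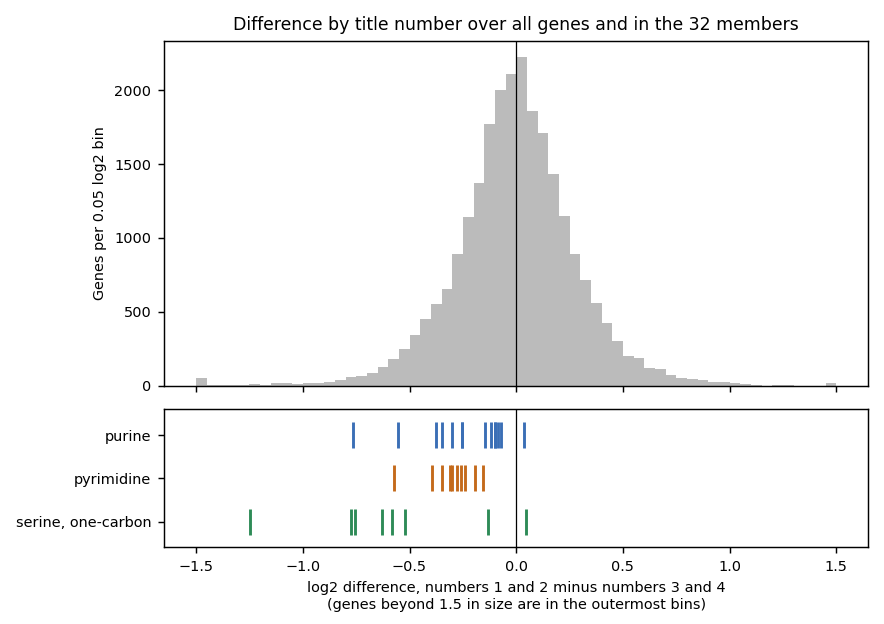
Upper panel, number of genes per 0.05 bin of the log2 difference between numbers 1 and 2 and numbers 3 and 4, over all 24583 genes, centred on 0.00. Lower panel, the same difference for each member of the 3 arms, from −1.25 for Shmt1 to 0.05 for Psph.

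A test that takes the 4 numbers as the titles give them, without this division, was also made. With the limma F test over the 4 numbers and the labelled group as a term, 0 of 32 members and 7 of 24583 genes (0.0285%) passed at an adjusted p under 0.05. The members with the smallest adjusted p in this test were Shmt1 (0.177), Phgdh (0.378) and Ppat (0.381). The 7 genes were Etv5, Bspry, Pthlh and Slco4c1, which were lower in numbers 1 and 2, and the sex-linked Xist, Eif2s3y and Kdm5d. With a variance that follows the signal and is robust to outlying genes, 14 members and 937 genes (3.81%) passed. Those 14 were Phgdh, Mthfd1, Psat1, Shmt1 and Mthfd2 of the serine and one-carbon arm, Ctps, Cad, Dut, Rrm2 and Umps of the pyrimidine arm, and Ppat, Gart, Atic and Nme1 of the purine arm. The call for the members thus depended on how the variance was modelled.

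**Figure D3:**
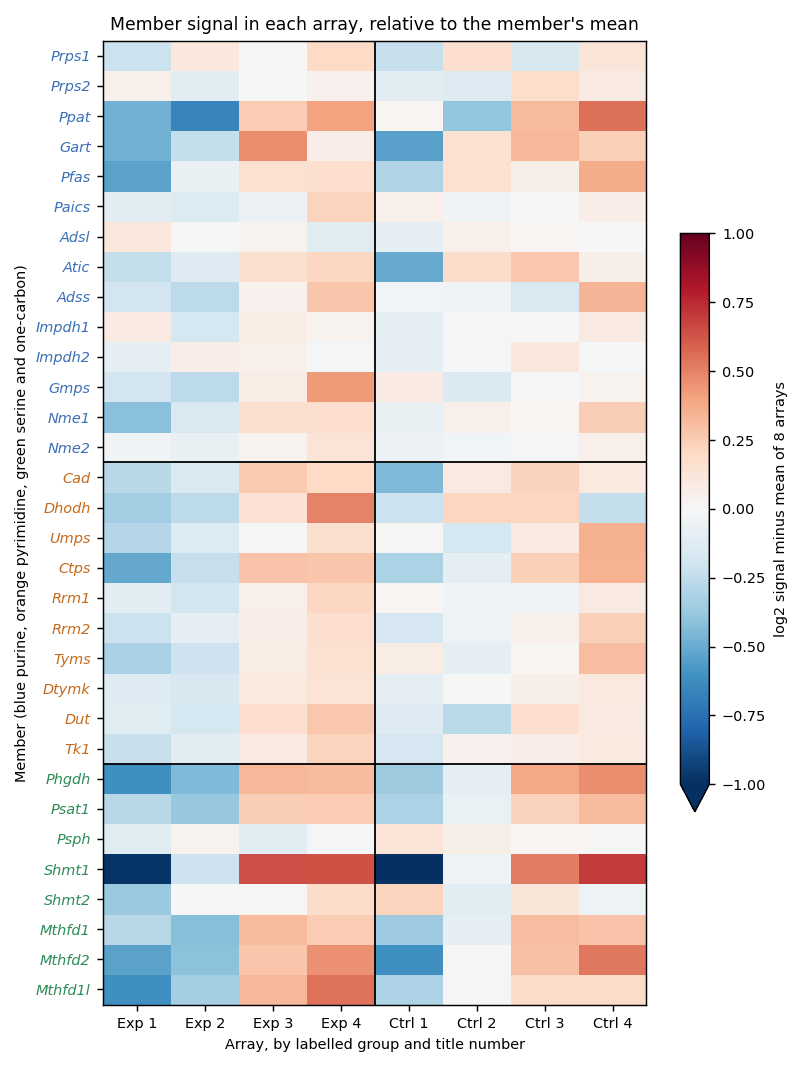
Log2 signal of each member (rows, grouped by arm) in each array (columns) minus the member's mean over the 8 arrays, blue below and red above it. Columns are experimental 1 to 4 and control 1 to 4, and numbers 1 and 2 of either group are mostly blue while numbers 3 and 4 are mostly red, with the strongest contrast in Shmt1. Control 2 came nearest to numbers 3 and 4. Its mean over the members was 10.47, against 10.21 to 10.31 in the other arrays numbered 1 and 2.

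Sequences around the start sites were compared between members that did and did not follow the number. RefSeq promoter windows (GRCm38.p6, 250 bases before to 50 bases after a start) were found for 30 of the 32 members, in 35 windows. Pfas and Dhodh had none in the table. Ppat and Paics are neighbours on chromosome 5, read in opposite directions, and they are shown because Ppat differed by −0.76 and Paics by −0.12. Phgdh and Shmt1 are shown because they headed their parts of the serine and one-carbon arm. Capitals mark matches to the 4 motifs searched, on both strands: CACGTG, the E-box bound by Myc and related factors, TGATGNAA, the core of the element bound by Atf4, and TTTGGCGC and TTTCCCGC, forms of the E2f site.
Ppat (chr5:76951529-76951828, minus strand): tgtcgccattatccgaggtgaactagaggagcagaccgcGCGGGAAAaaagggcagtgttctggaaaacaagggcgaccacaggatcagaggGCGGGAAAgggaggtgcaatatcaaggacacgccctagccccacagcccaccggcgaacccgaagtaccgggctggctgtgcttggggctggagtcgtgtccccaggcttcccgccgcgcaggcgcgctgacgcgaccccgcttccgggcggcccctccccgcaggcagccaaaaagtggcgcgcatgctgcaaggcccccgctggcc
Paics (chr5:76951052-76951351, plus strand): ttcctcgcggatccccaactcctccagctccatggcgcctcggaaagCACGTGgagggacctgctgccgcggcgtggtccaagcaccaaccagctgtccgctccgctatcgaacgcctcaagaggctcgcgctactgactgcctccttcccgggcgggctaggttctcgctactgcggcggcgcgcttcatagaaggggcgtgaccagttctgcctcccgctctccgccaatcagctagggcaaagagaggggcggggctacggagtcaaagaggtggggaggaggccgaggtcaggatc
Phgdh (chr3:98339920-98340219, minus strand): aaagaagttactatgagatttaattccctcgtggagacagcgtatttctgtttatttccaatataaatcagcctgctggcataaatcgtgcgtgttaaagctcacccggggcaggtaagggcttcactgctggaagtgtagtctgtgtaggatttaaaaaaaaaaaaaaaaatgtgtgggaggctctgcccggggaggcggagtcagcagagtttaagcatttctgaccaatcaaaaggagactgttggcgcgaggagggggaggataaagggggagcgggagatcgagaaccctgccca
Shmt1 (chr11:60811216-60811515, minus strand): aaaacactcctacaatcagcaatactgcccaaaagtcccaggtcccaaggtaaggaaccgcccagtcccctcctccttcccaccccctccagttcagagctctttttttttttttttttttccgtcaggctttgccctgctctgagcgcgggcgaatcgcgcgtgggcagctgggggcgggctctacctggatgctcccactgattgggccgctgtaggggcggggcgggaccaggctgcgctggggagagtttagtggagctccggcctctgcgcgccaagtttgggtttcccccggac
The Ppat window held 2 matches to the E2f form TTTCCCGC, read on the other strand as GCGGGAAA, and the Paics window held 1 CACGTG, whereas the Phgdh and Shmt1 windows held no match to these letters.

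CACGTG was present in the windows of 6 of the 30 members and in 7.15% of the 32851 windows in the table. Member windows were richer in CpG than the table as a whole (median of 20 and 7 per window), and CACGTG contains a CpG. The E-boxes of the other 5 members are shown with 17 bases on each side to place them beside their values (Nme1 has 2 start sites, the upstream one of which is given).
Atic (chr1:71557132-71557171, plus strand): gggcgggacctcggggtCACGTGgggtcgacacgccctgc
Dtymk (chr1:93802060-93802099, minus strand): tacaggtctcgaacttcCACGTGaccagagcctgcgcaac
Impdh2 (chr9:108560309-108560348, plus strand): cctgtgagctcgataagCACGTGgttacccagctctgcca
Nme1 (chr11:93968268-93968307, minus strand): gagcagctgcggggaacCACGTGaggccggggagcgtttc
Tyms (chr5:30073664-30073703, minus strand): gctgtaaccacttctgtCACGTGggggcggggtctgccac
In order, these genes differed between numbers 1 and 2 and numbers 3 and 4 by −0.35, −0.19, −0.07, −0.30 and −0.28. The 6 members with a CACGTG had a median of −0.23 (−0.35 to −0.07), and the 24 without one in these windows had a median of −0.28 (−1.25 to 0.05). TGATGNAA was found in 1 member (Prps1) and 3.97% of all windows, TTTCCCGC in 2 (Ppat and Prps2) and 1.07%, and TTTGGCGC in 0 members and 0.514% of all windows. A match is a string of letters in a window and was not tested for binding.

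The serine and one-carbon arm held the largest differences by number. Its mean was 9.44 ± 0.18 in numbers 1 and 2 and 10.02 ± 0.04 in numbers 3 and 4 (SD, n = 4 each), and 6 of its 8 members were without overlap (8.88% of all genes at or above the median signal). Of the enzymes that make serine from a glycolytic intermediate, Phgdh, the dehydrogenase of the first step, had 11.30 and 11.47 in experimental 1 and 2 and 11.56 and 11.82 in control 1 and 2, against 12.25 and 12.23 in experimental 3 and 4 and 12.30 and 12.38 in control 3 and 4. Its mean was 11.54 ± 0.22 in numbers 1 and 2 and 12.29 ± 0.07 in numbers 3 and 4 (SD, n = 4 each), so that numbers 1 and 2 reached 0.593 of the signal in numbers 3 and 4. Psat1, the transaminase of the second step, had 12.01 and 11.91 in experimental 1 and 2 and 11.97 and 12.21 in control 1 and 2, against 12.53 and 12.54 in experimental 3 and 4 and 12.51 and 12.60 in control 3 and 4. For both genes each array of numbers 1 and 2 lay below each of the others by a clear gap. Psph, which follows them in the pathway, had no such step, with 9.30 ± 0.11 in numbers 1 and 2 and 9.25 ± 0.06 in numbers 3 and 4 (SD, n = 4 each) and a difference of 0.05. Of the 3 enzymes of serine synthesis, the first and second were thus lower in numbers 1 and 2 without overlap, and the last was not.

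Serine hydroxymethyltransferase moves a carbon unit from serine to folate, in the cytosol as Shmt1 and in mitochondria as Shmt2. Shmt1 had the largest difference of all members (−1.25), with 5.50 and 6.27 in experimental 1 and 2 and 5.22 and 6.44 in control 1 and 2, against 7.12 and 7.11 in experimental 3 and 4 and 6.999 and 7.18 in control 3 and 4. Numbers 1 and 2 reached 0.421 of the signal in numbers 3 and 4, and they also differed from each other, number 1 being lowest in both labelled groups. Its signal was the dimmest of the members. Shmt2 had 9.54 and 9.92 in experimental 1 and 2 and 10.14 and 9.80 in control 1 and 2, against 9.93 and 10.10 in experimental 3 and 4 and 10.04 and 9.86 in control 3 and 4, and its sets overlapped, with a difference of −0.13. Within the labelled groups the Shmt2 difference had both signs, −0.28 within the labelled experimental arrays and 0.02 within the labelled control arrays.

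Of the enzymes that then convert folate between its oxidation states, Mthfd2, the mitochondrial dehydrogenase and cyclohydrolase that is high in embryonic and proliferating cells, had 7.19 and 7.32 in experimental 1 and 2 and 7.11 and 7.73 in control 1 and 2, against 7.998 and 8.18 in experimental 3 and 4 and 8.01 and 8.25 in control 3 and 4. Its difference was −0.77, with −0.83 within the labelled experimental arrays and −0.71 within the labelled control arrays. Mthfd1l, the mitochondrial formate-releasing synthetase, had 6.95 and 7.22 in experimental 1 and 2 and 7.25 and 7.57 in control 1 and 2, against 7.90 and 8.10 in experimental 3 and 4 and 7.76 and 7.76 in control 3 and 4, and the difference of −0.63 was −0.92 within the labelled experimental arrays and −0.34 within the labelled control arrays. Mthfd1, the cytosolic trifunctional enzyme, had 12.40 and 12.24 in experimental 1 and 2 and 12.30 and 12.57 in control 1 and 2, against 12.98 and 12.93 in experimental 3 and 4 and 12.98 and 12.96 in control 3 and 4. For Mthfd1 the highest value in numbers 1 and 2 (12.57) lay below the lowest in numbers 3 and 4 (12.93). By their brightest spots the 3 Mthfd genes were therefore all lower in numbers 1 and 2, on both sides of the mitochondrial membrane. The dimmer spot of Mthfd1, the cytosolic one, gave 0.03. Of the Shmt pair the cytosolic enzyme alone was lower without overlap.

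**Figure D4:**
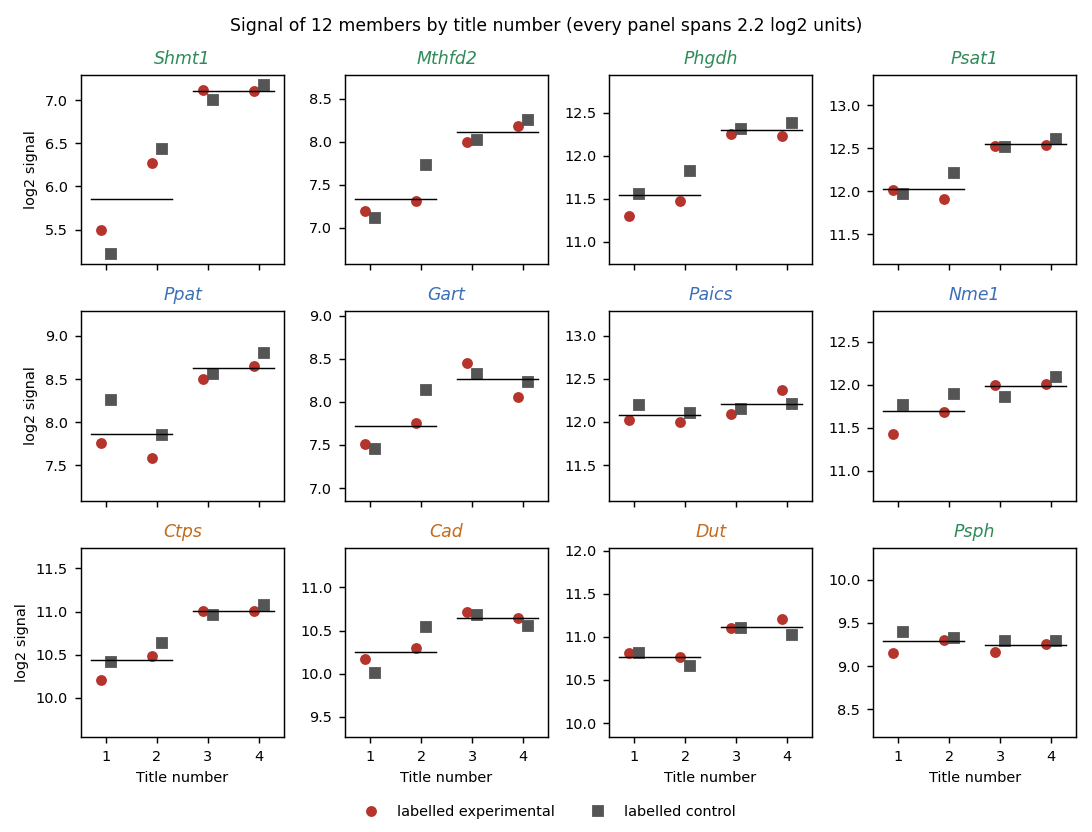
Log2 signal of 12 members against title number in the arrays labelled experimental (red circles) and control (grey squares), with lines at the mean of numbers 1 and 2 and of numbers 3 and 4. The step is widest in Shmt1 (−1.25) and absent in Psph (0.05), and the symbols of the labelled groups overlap in every panel.

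The purine arm had smaller differences, with a mean of 10.45 ± 0.08 in numbers 1 and 2 and 10.69 ± 0.05 in numbers 3 and 4 (SD, n = 4 each), and 2 of its 14 members were without overlap. Among all genes at or above the median signal 8.88% were lower without overlap, so this count was not far from that share. Prps1 and Prps2, which encode the synthetases of PRPP and both lie on the X chromosome, differed by −0.09 and −0.15 with overlapping sets. Ppat, at the committed step, was the member of this arm with the largest difference (−0.76, the values being given above), at 7.86 ± 0.29 in numbers 1 and 2 and 8.62 ± 0.13 in numbers 3 and 4 (SD, n = 4 each). Gart, a trifunctional enzyme of the early ring steps that uses formyl folate, had 7.51 and 7.75 in experimental 1 and 2 and 7.45 and 8.14 in control 1 and 2, against 8.45 and 8.06 in experimental 3 and 4 and 8.33 and 8.23 in control 3 and 4, a difference of −0.55 with overlap through control 2. Pfas, which catalyses an amidation in the middle of the pathway, had 6.66 and 7.12 in experimental 1 and 2 and 6.90 and 7.35 in control 1 and 2, against 7.35 and 7.37 in experimental 3 and 4 and 7.26 and 7.57 in control 3 and 4 and a difference of −0.38. For Pfas control 2 was again the array of numbers 1 and 2 that reached into the range of the others. Paics, the bifunctional enzyme of the following steps, differed by −0.12 and Adsl, the lyase, by 0.04. Atic, which closes the ring with a second formyl unit, had 10.27 and 10.38 in experimental 1 and 2 and 10.01 and 10.69 in control 1 and 2, against 10.67 and 10.72 in experimental 3 and 4 and 10.78 and 10.57 in control 3 and 4 and differed by −0.35.

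Downstream of IMP the differences lay between −0.30 and −0.07. Adss, of the branch to AMP, differed by −0.26. On the branch to GMP, Impdh1 differed by −0.10, Impdh2 by −0.07 and Gmps by −0.26, all with overlap. The Impdh isoenzymes were level, Impdh2 at 12.74 ± 0.08 in numbers 1 and 2 and 12.81 ± 0.06 in numbers 3 and 4 (SD, n = 4 each). Of the kinases that make nucleoside triphosphates, Nme1 had 11.42 and 11.68 in experimental 1 and 2 and 11.76 and 11.89 in control 1 and 2, against 11.998 and 12.01 in experimental 3 and 4 and 11.86 and 12.09 in control 3 and 4 and a difference of −0.30. Nme2 differed by −0.10 and was without overlap (15.15 the highest in numbers 1 and 2 and 15.16 the lowest in numbers 3 and 4), at a signal near the upper limit.

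In the pyrimidine and deoxynucleotide arm all 10 members were lower in numbers 1 and 2, and 6 were without overlap (8.88% of all genes at or above the median signal). The arm had a mean of 10.86 ± 0.09 in numbers 1 and 2 and 11.16 ± 0.05 in numbers 3 and 4 (SD, n = 4 each). Cad, whose product performs the first 3 steps, had 10.17 and 10.30 in experimental 1 and 2 and 10.01 and 10.54 in control 1 and 2, against 10.71 and 10.65 in experimental 3 and 4 and 10.69 and 10.55 in control 3 and 4, a difference of −0.39 in which control 2 lay just below control 4. Dhodh, the mitochondrial step, had 7.20 and 7.29 in experimental 1 and 2 and 7.33 and 7.76 in control 1 and 2, against 7.69 and 8.04 in experimental 3 and 4 and 7.77 and 7.31 in control 3 and 4. Its difference of −0.31 lay in the labelled experimental arrays (−0.62 within the labelled experimental arrays and 0.01 within the labelled control arrays), and the sets overlapped. Umps, the last step to UMP, had 11.04 and 11.20 in experimental 1 and 2 and 11.35 and 11.17 in control 1 and 2, against 11.34 and 11.50 in experimental 3 and 4 and 11.42 and 11.69 in control 3 and 4, a difference of −0.30 with overlap through control 1. Ctps, the synthetase of CTP, showed the widest step of this arm, with 10.21 and 10.49 in experimental 1 and 2 and 10.41 and 10.64 in control 1 and 2, against 11.01 and 11.004 in experimental 3 and 4 and 10.96 and 11.07 in control 3 and 4. Its mean was 10.44 ± 0.18 in numbers 1 and 2 and 11.01 ± 0.05 in numbers 3 and 4 (SD, n = 4 each), so that numbers 1 and 2 reached 0.671 of the signal in numbers 3 and 4.

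Of the enzymes that supply DNA precursors, Rrm1 and Rrm2, the large and the small subunit of ribonucleotide reductase, differed by −0.16 and −0.26. The sets overlapped for Rrm1. For Rrm2 they did not, with 11.82 and 11.95 in experimental 1 and 2 and 11.87 and 11.98 in control 1 and 2, against 12.10 and 12.21 in experimental 3 and 4 and 12.09 and 12.27 in control 3 and 4. Dut, which removes dUTP, had 10.81 and 10.76 in experimental 1 and 2 and 10.81 and 10.67 in control 1 and 2, against 11.11 and 11.20 in experimental 3 and 4 and 11.11 and 11.02 in control 3 and 4, a difference of −0.35 without overlap. Tyms, which makes dTMP with folate as its carbon donor, had 11.91 and 12.03 in experimental 1 and 2 and 12.31 and 12.14 in control 1 and 2, against 12.31 and 12.39 in experimental 3 and 4 and 12.25 and 12.54 in control 3 and 4, a difference of −0.28. Dtymk, the kinase of dTMP, differed by −0.19, and Tk1, the thymidine kinase of S phase, by −0.24. Tyms overlapped through control 1, and Dtymk and Tk1 did not overlap. These 6 genes therefore lay between −0.35 and −0.16, a narrower range than that of the serine and one-carbon arm (−1.25 to 0.05).

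**Figure D5:**
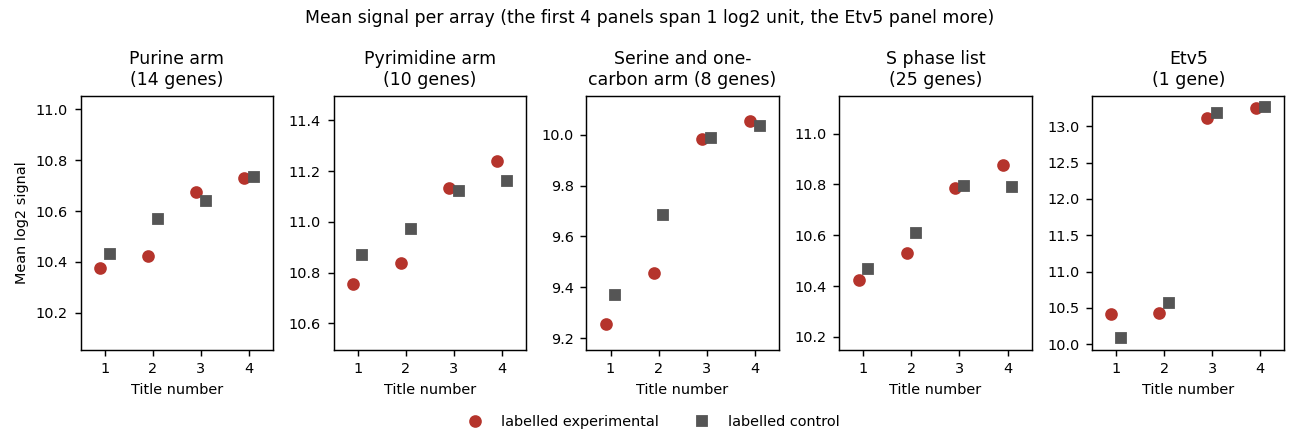
Mean log2 signal of each arm, of 25 S phase genes outside the set and of Etv5 in each array, against title number, for arrays labelled experimental (red circles) and control (grey squares). In each panel the arrays numbered 1 and 2 lie below those numbered 3 and 4, by 0.25 in the purine, 0.30 in the pyrimidine and 0.57 in the serine and one-carbon arm.

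Values of some cell type lists and of proliferation moved with the number as well, and their part in the differences above was not tested. The 25 S phase genes outside the set (Mcm2 to Mcm7, Pcna, Cdc6 and others) had a mean per array of 10.42 to 10.61 in numbers 1 and 2 and 10.79 to 10.88 in numbers 3 and 4. All 25 were lower in numbers 1 and 2 and 14 were without overlap, among them Cdk2 (−0.63), Cdc6 (−0.50) and Cdc45 (−0.49). Without overlap were 5.39% of all genes and 8.88% of those at or above the median signal, to which all of this list but Ccne2 belong. For the counts by sign in this paragraph, 50.2% of all genes were lower in numbers 1 and 2. Mki67 of the same list, a gene expressed throughout the cycle, was nearly level (−0.04). The 10 pan-epithelial markers had 10.95 to 11.20 in numbers 1 and 2 and 11.25 to 11.34 in numbers 3 and 4, with 7 of 10 lower. This list was divided. Its largest differences were in Nkx2-1 (−0.76), Cldn6 (−0.67) and Cldn7 (−0.61), while Krt8 (0.07), Krt18 (0.11) and Foxa1 (0.25) were higher. The 7 distal tip markers had 9.94 to 10.17 in numbers 1 and 2 and 11.51 to 11.61 in numbers 3 and 4, with all 7 lower. The 10 mesenchymal markers (11.98 to 12.23 in numbers 1 and 2, 12.04 to 12.10 in numbers 3 and 4) overlapped. The 6 leukocyte markers ran the other way, at 10.27 to 10.37 in numbers 1 and 2 and 10.02 to 10.18 in numbers 3 and 4. The 8 endothelial markers had 10.62 to 10.78 in numbers 1 and 2 and 10.55 to 10.71 in numbers 3 and 4, and the 6 measured erythroid markers 9.82 to 10.08 in numbers 1 and 2 and 9.64 to 10.36 in numbers 3 and 4, both with overlap. None of these lists was at the lower end of the scale, 2.00.

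Neighbouring parts of the metabolism were less uniform. For the counts without overlap in this paragraph, the shares over all genes were 5.39% below and 5.17% above. Of 23 measured folate and one-carbon enzymes and carriers outside the set, 13 were lower and 10 higher in numbers 1 and 2, with a median of −0.06, 4 without overlap below and 1 above. The largest differences belonged to the folate carrier Slc19a1 (−0.44), to Fpgs, which retains folate in the cell (−0.38), and to Ahcy of the methionine cycle (−0.36). Slc19a1 had 8.82 and 8.80 in experimental 1 and 2 and 8.45 and 8.85 in control 1 and 2, against 9.05 and 9.31 in experimental 3 and 4 and 9.17 and 9.17 in control 3 and 4. Of 29 measured genes of nucleotide salvage and interconversion (of 30 listed), 24 were lower and 5 higher, with a median of −0.13, 5 without overlap below and 1 above. Among these, Ak1, an adenylate kinase, differed by −0.80, Dctpp1, which removes dCTP, by −0.39, and the nucleoside transporter Slc29a1 by −0.38. The 17 genes of nucleotide breakdown were divided, 8 lower and 9 higher with a median of 0.00, among them Dpyd, the first enzyme of pyrimidine breakdown (−0.62), and Samhd1, which degrades dNTPs (−0.29), and Ampd2, an AMP deaminase (−0.17). Of the 7 paralogs and regulatory partners 3 were lower and 4 higher, and Ctps2, the paralog of Ctps, was at 0.14 where Ctps was at −0.57. In these 4 lists 0 genes passed between the labelled groups and 0 passed the F test over numbers, whereas with the trended robust variance 2 salvage genes (Ak1 and Dctpp1) and 1 breakdown gene (Upb1) passed the F test.

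Of the regulators, Myc had 8.37 and 8.22 in experimental 1 and 2 and 8.34 and 8.32 in control 1 and 2, against 8.96 and 9.07 in experimental 3 and 4 and 8.69 and 8.86 in control 3 and 4, and Mycn had 9.80 and 9.89 in experimental 1 and 2 and 9.35 and 9.83 in control 1 and 2, against 10.18 and 10.14 in experimental 3 and 4 and 10.16 and 10.17 in control 3 and 4. Both were without overlap, and the other 8 genes of the Myc family ranged from −0.19 to 0.33, the highest being the antagonist Mxd4. Of 21 genes of the Atf4 and amino acid response, 14 were lower and 7 higher in numbers 1 and 2, with a median of −0.10. Asns, the asparagine synthetase, was lower (−0.75) and Nupr1 and Sesn2, stress-induced genes, were higher (0.74 and 0.49), while Atf4 itself was at −0.07. In both lists 0 genes passed either test, but with the trended robust variance Myc, Mycn, Asns and Nupr1 passed the F test over numbers.

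Spots other than the brightest allowed a check within each array. The members had 74 spots in all, 11 members 1 spot and 21 members several. Of the 42 further spots 37 were lower in numbers 1 and 2, and in 16 of the 21 members with several spots all spots were lower. Both spots of Mthfd2 gave −0.77, and all 10 spots of Nme2 lay between −0.14 and −0.03. Members whose spots disagreed were Mthfd1, in which a dimmer spot with a mean of 9.68 gave 0.03 beside −0.58 for the brightest, and Psat1, Atic, Adss and Dhodh, each with 1 spot above 0 (at most 0.34). The means of these spots were 2.93, 3.54, 6.85 and 4.81, in order, on a scale whose lower end was 2.00. The other dimmer spot of Psat1, with a mean of 6.29, gave −0.62. The step of Mthfd1 therefore rests on 1 of its 2 spots. For Ppat the dimmer spot gave −0.26 beside −0.76, and for Shmt1 −0.39 beside −1.25, both with overlap. The reverse was found for Gart, in which a spot with a mean of 7.76 gave −0.69 without overlap. Both dimmer spots of Tyms were also without overlap (−0.34 and −0.43). Of the 42 further spots 8 were lower without overlap, so the calls of overlap depended on the choice of spot.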

How the data were processed

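Array titles gave the group and number of each of the 8 samples. From the scans the authors read spot signals in Mapix. In limma they corrected background by normexp with an offset of 1, took logarithms and applied quantile normalization. Log2 signals of 62976 spots resulted and were deposited. Base 2 was inferred from the highest value, just under 16. No call of detection was made, since scanner output was not used here. Left out were 2 spots with a missing value.

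Platform annotation named 43941 spots, and symbols were updated through unversioned accessions of the RefSeq table (33708 matched, 1424 changed). Each gene was represented by the spot with the highest mean. Differences were fitted over 24583 genes with limma 3.58.1 (lmFit, eBayes) in R 4.3.3, unpaired as in the study, two-sided, with Benjamini-Hochberg adjustment and a threshold of 0.05. The F test over title numbers had the labelled group as a term. The fits were run on simulated data with independent noise and with shifts larger than the differences of most members. Such data lack the deviations shared within a number. The run therefore does not show whether differences as small as those of most members would be found. As no source gave the litter or the day of a lung, the spread behind a p-value may be partly technical.

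As a check of pairing, the deviation from the group mean was correlated over genes between the experimental and control array of each number (0.109, 0.146, 0.124 and 0.117 for 1 to 4), and the own number gave the highest value for every array. The numbers were therefore treated as pairs in an alternative fit with a block, although Etv5 and Xist were shared within them too. Members printed array by array were, per arm, the 5 with the largest number difference and the 2 with the smallest p between labelled groups; of other lists, up to 3 genes above the median signal with the largest number difference. Psat1, Rrm2, Mki67 and Atf4 were added after their values were seen. Proteins of paralogs were not compared here. The members and lists were chosen with earlier results of these data known.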

Additional observations from a re-analysis of the deposited data

How the results depend on the processing

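Between the labelled groups 0 genes and 0 members passed under every alternative (the number as a replicate block, the methods' t-test, a trended robust variance, the mean of all spots, genes above the median signal, repeated quantile normalization and the omission of each array), and the replicate block changed no call. The count of genes at an unadjusted p under 0.05 was 788 by the methods' t-test and 1182 with the block. The F test over numbers was the result that moved. Genes passing numbered 7, but 11 with the mean of all spots, 39 without the labelled group as a term, 84 among genes above the median signal (of which 1 was a member) and 937 with the trended robust variance, and 0 to 0 when 1 array was omitted. Members passing numbered 0, but 1 without the group term and 14 with the trended robust variance.

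Median differences by number kept their sign. Over the members the median was −0.29, or −0.37 in the labelled experimental arrays alone. In the purine arm it was −0.20, or −0.29 in experimental and −0.12 in control arrays alone, and in the serine and one-carbon arm −0.61, or −0.39 with the mean of all spots. Members lower without overlap numbered 14, 26 in experimental and 19 in control arrays alone (background 21.1% and 18.9%, as 2 arrays on each side separate more readily) and 14 to 18 without 1 array. No background share is given for the counts without 1 array, where the sets also separate more readily. Members higher without overlap numbered 0, 1 in control arrays alone and 0 to 1 without 1 array. The filter by signal for these counts was added after the data were seen and gave 14 and 0.

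Between the labelled groups, omission of 1 array took the median difference from −0.13 to 0.02 over the members, from −0.094 to 0.015 in the purine arm, from −0.094 to 0.045 in the pyrimidine arm and from −0.20 to 0.023 in the serine and one-carbon arm. Single differences changed sign with the mean of all spots for Gart (0.068), Dut (−0.0065), Dhodh (−0.086) and Mthfd1l (0.24), and on omission of 1 array for Atic (−0.17 to 0.088), Cad (−0.135 to 0.105), Ctps (−0.21 to 0.063), Dhodh (−0.15 to 0.13), Dut (−0.0091 to 0.14), Gart (−0.29 to 0.051), Mthfd1 (−0.20 to 0.067), Mthfd1l (−0.23 to 0.16), Mthfd2 (−0.33 to 0.055), Pfas (−0.26 to 0.014) and Shmt1 (−0.37 to 0.38). None of these passed. The cause of these changes was not tested. The number of arrays, and compression of signals near 16 for Adsl and Nme2, limit what could be seen.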

Other observations

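Both genes named here and Upb1 below were picked with their values in view. Prps1, an X-linked gene, followed the number in another way than the rest of the set. It had 10.42 and 10.51 in experimental 2 and 4 and 10.47 and 10.44 in control 2 and 4, the arrays with high Xist, against 10.09 and 10.31 in experimental 1 and 3 and 10.08 and 10.15 in control 1 and 3. These sets did not overlap. Prps2, also X-linked, had 9.47 and 9.62 in experimental 2 and 4 and 9.45 and 9.66 in control 2 and 4, against 9.63 and 9.57 in experimental 1 and 3 and 9.46 and 9.76 in control 1 and 3, and its sets overlapped. No test was made of either.

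Upb1, the last enzyme of pyrimidine breakdown, ran against the genes of synthesis. At a dim mean signal of 4.45, it had 6.31 and 5.46 in experimental 1 and 2 and 4.68 and 5.35 in control 1 and 2, against 2.72 and 3.28 in experimental 3 and 4 and 3.99 and 3.82 in control 3 and 4, a difference of 1.998 without overlap.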
